A study of Mus musculus with 10 samples.

Results

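Zinc enters the cytosol, is stored there and leaves it again through a small set of proteins, and 7 of their genes are described here in mouse embryonic stem cells: the importers Slc39a14, Slc39a10 and Slc39a8, the exporter Slc30a1, the zinc-sensing transcription factor Mtf1, and the metallothioneins Mt1 and Mt2. They were chosen by gene symbol, as 7 of the 54456 genes in the table. The choice was made with the data in view. Slc39a14 was known to differ between the wild-type library and the converted lines. That difference is therefore given as a description only and without a test. A difference of Slc39a14 between converted lines was known as well, so p-values given for it are no independent support for it. Of the 7 genes, 6 had a mean of at least 10 normalized counts (reads divided by a size factor for the library) and were tested, and Slc39a8 was not.

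The study rewrote the Taf1 gene of the mouse to model X-linked dystonia parkinsonism, a disease with an SVA retrotransposon insertion in that gene. The cells were C57BL/6J embryonic stem cells kept on gelatin, and their KnockOut DMEM held serum, LIF, the GSK3 inhibitor CHIR99021 at 3 µM and the MEK inhibitor PD0325901 at 1 µM. The converted line conv-dSVA_F&D carries SVAdel and dSVA2 in the label of its Taf1 allele, conv-dSVA_F carries SVAdel, and conv-dSVA_D carries dSVA2, with 2 libraries each. The labels of all 3 also list loxP[Taf1_i24], LPSwapinRed_pUC19[Taf1_3_4], a converted, mousified hTAF1 allele (Taf1_humanization, [Taf1_1_2]), the Cas9 plasmids pSpCas9[null] and pSpCas9GFP[null], and the Cre plasmid pCAGiCre[null]. The wild-type line is MK6, with 1 library. The labels name no clone and do not say that replicates are separate cultures, so genotype and clone cannot be told apart and p-values measure only the spread between these libraries. Of the 10 samples in the series, the pre-conversion stem cells and both striatal samples were not analysed here.

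Cells take up zinc mainly through ZIP (Slc39) transporters, which move it into the cytosol, and remove it through ZnT (Slc30) transporters, which move it out of the cell or into vesicles. Free zinc activates MTF1, which binds metal response elements in promoters and raises transcription of the metallothionein genes and of Slc30a1. Metallothioneins are small cysteine-rich proteins that bind zinc and copper, so their RNA is widely used as a readout of zinc in the cytosol.

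The coding sequences of Mt1 and Mt2 are shown because their cysteine codons are the metal-binding part of both proteins. They come from the GENCODE M21 transcripts (GRCm38) and are written with the cysteine codons in capitals. Mt1 (ENSMUSG00000031765) lies on the plus strand at chr8:94179082-94180327 and Mt2 (ENSMUSG00000031762) on the plus strand at chr8:94172664-94173568.
Mt1 coding sequence: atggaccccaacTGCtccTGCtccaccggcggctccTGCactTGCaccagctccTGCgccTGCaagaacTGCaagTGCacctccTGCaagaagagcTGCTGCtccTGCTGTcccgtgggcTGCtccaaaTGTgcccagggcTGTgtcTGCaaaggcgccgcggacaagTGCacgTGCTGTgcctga
Mt2 coding sequence: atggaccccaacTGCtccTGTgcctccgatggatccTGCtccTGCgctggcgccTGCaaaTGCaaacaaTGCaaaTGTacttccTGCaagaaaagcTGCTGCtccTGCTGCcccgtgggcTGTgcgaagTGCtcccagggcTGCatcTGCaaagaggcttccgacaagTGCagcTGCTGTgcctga
Each has 61 codons before the stop, 20 of them for cysteine, and all 20 stand at the same positions in both. The sequences are identical at 148 of 186 bases (79.6%), and the longest identical run is 20 bases.

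The promoter windows of Mt1, Mt2 and Slc30a1, textbook MTF1 targets, are shown with the core of the metal response element in capitals. They are RefSeq windows (GRCm38.p6) of 250 bases before to 50 bases after the annotated start, on the plus strand, at chr8:94178839-94179138, chr8:94172368-94172667 and chr1:191906531-191906830.
Mt1 promoter: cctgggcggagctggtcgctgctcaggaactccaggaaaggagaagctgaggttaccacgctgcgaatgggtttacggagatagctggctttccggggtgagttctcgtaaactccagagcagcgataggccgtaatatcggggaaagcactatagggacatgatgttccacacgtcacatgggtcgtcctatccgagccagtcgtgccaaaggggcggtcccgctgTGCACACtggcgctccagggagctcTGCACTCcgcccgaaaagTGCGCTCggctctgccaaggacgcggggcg
Mt2 promoter: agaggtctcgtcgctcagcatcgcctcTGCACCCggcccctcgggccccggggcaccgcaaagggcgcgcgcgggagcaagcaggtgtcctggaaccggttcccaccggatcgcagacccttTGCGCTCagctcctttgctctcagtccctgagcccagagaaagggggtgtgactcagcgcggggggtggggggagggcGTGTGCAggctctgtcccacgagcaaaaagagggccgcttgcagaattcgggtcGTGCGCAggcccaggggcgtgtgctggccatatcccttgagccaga
Slc30a1 promoter: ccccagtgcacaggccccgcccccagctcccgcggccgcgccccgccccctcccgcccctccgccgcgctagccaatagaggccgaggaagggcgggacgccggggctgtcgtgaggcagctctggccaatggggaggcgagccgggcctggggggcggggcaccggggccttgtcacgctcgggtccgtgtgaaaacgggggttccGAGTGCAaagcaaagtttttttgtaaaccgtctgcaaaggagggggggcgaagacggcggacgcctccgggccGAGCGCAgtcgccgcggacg
The letters searched were TGCACNC and TGCGCNC on both strands, counting overlapping matches. The Mt1 window held 3 matches, the Mt2 window 4 and the Slc30a1 window 2. Of 32851 windows of the same length, 1.97% held at least 3 matches, 0.517% at least 4 and 7.11% at least 2. The Mtf1 window and both Slc39a10 windows held 0, and the Slc39a8 windows held 0 and 1, against 25.7% of windows with at least 1. Windows were matched for 6 of the 7 genes, all but Slc39a14. The letters TATAAA lie at base 129 of the annotated Mt1 transcript and at base 90 of the Mt2 transcript, so both windows lie upstream of them. The bases between each window and TATAAA were not searched, so matches there are not in these counts. A match is a description of the sequence and not a measured binding site.

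Slc39a14 (ENSMUSG00000022094), on the minus strand at chr14:70303469-70351425 with no overlapping gene in the annotation, encodes ZIP14, a plasma membrane importer of zinc, non-transferrin-bound iron and manganese. It differed most among the 7 genes. Its level was 322.29 and 625.47 normalized counts in conv-dSVA_F&D, 1104.45 and 1150.61 in conv-dSVA_F, 1632.35 and 887.42 in conv-dSVA_D, and 118.97 in the wild-type library. All 6 converted libraries stood above the wild-type library, and both conv-dSVA_F&D libraries stood below all 4 libraries of the lines that carry 1 of these changes. These values rest on 352 and 449 reads, 1298 and 1133 reads, 1700 and 1087 reads, and 109 reads in the same order of libraries.

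**Figure D1:**
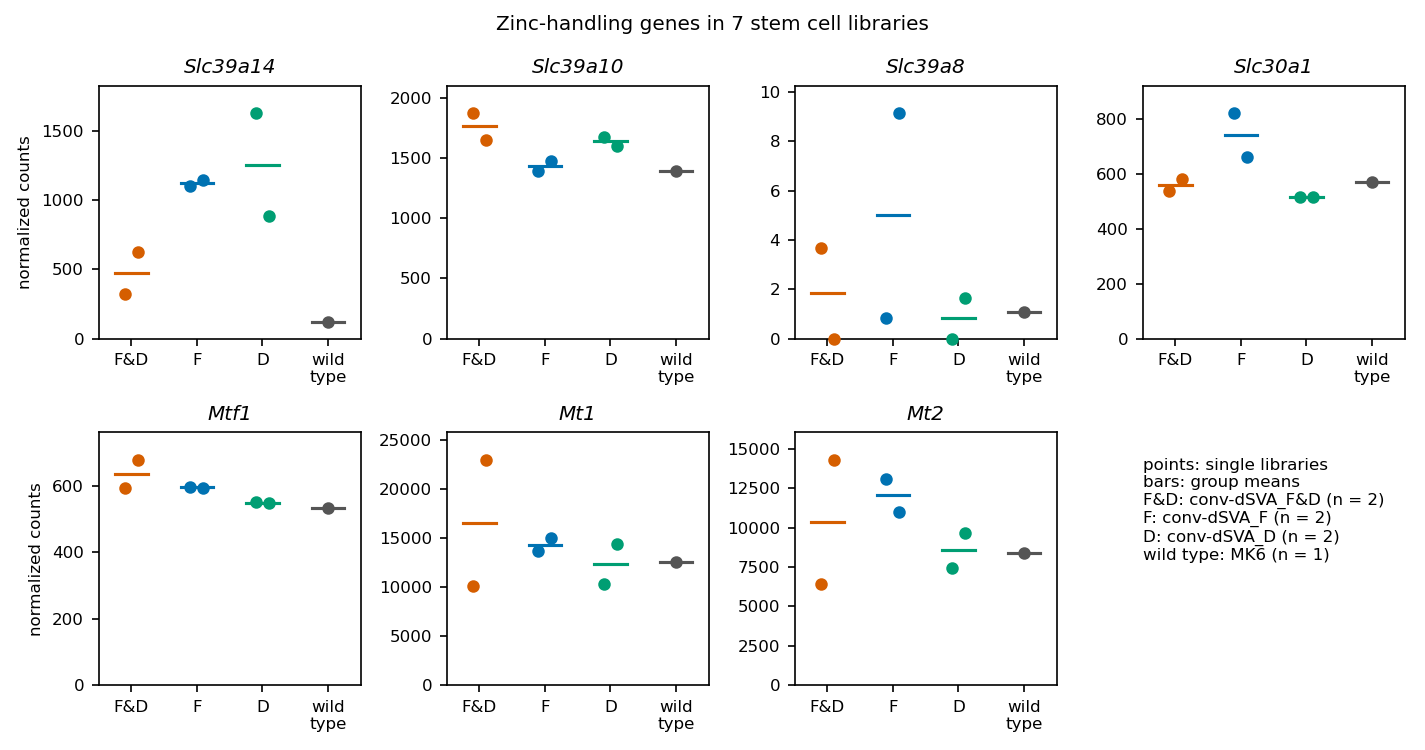
Normalized counts (y axis, linear from 0) of the 7 genes by group (x axis), with a point for each library and a bar at the group mean. Slc39a14 is at 118.97 in the wild-type library and between 322.29 and 1632.35 in the converted libraries, whereas Slc39a10, Slc30a1 and Mtf1 differ by at most 1.6-fold between any libraries.

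Between the converted lines, Slc39a14 was lower with SVAdel and dSVA2 (conv-dSVA_F&D) than with dSVA2 alone (conv-dSVA_D), lines whose labels differ by SVAdel. The means were 474 ± 214 in conv-dSVA_F&D and 1260 ± 527 in conv-dSVA_D (SD, n = 2 each), a log2 difference of -1.42 ± 0.33 (95% interval -2.15 to -0.69, limma adjusted p = 0.0495). This difference was known when the genes were chosen, so the interval and p-value describe it and are no independent support for it. For Slc39a14, nothing is read from the shares given next either. It was 1 of 6 tested genes lower in conv-dSVA_F&D, against 1.21% of all 15240 genes tested, and 0 of 6 were higher, against 1.96% of all genes (limma, 1 of 6 at unadjusted p under 0.05 in either direction, 1 with edgeR and 1 with DESeq2, Slc39a14 each time). The gene stood at rank 464 by p. In bulk RNA, fewer cells with a transcript and less of it per cell cannot be told apart. By limma the call did not hold on removal of conv-dSVA_F&D replicate 1 (-0.94, adjusted p = 0.103), conv-dSVA_F replicate 1 (-1.42, 0.0892) or replicate 2 (-1.42, 0.0914), or conv-dSVA_D replicate 1 (-0.98, 0.314) or replicate 2 (-1.86, 0.0891), and the difference was below 0 in all of these. Nor did it hold with a pseudocount of 0.5, without the filter on low values, without the variance trend, or with the compared libraries alone.

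Against conv-dSVA_F, the line whose label differs by dSVA2, the difference was of about that size and did not pass. Slc39a14 averaged 474 ± 214 in conv-dSVA_F&D and 1128 ± 32.6 in conv-dSVA_F (SD, n = 2 each), a log2 difference of -1.33 ± 0.33 (95% interval -2.06 to -0.60, limma adjusted p = 0.0553). The lines that carry SVAdel or dSVA2 alone overlapped: 1128 ± 32.6 in conv-dSVA_F and 1260 ± 527 in conv-dSVA_D gave a log2 difference of -0.09 ± 0.33 (95% interval -0.82 to 0.63, limma adjusted p = 0.924). Over the 3 converted groups together, the moderated F test of limma gave an adjusted p of 0.0475, 1 of 6 tested genes past the threshold against 5.58% of all genes. The difference of Slc39a14 between conv-dSVA_F&D and conv-dSVA_D was known when the genes were chosen. The F test includes it, so nothing is read from its p-value or from that share. The call by the F test was lost with edgeR, with chromosome medians set equal, with a pseudocount of 0.5, without the filter or the trend, and without any 1 of the conv-dSVA_F or conv-dSVA_D libraries. These comparisons share libraries, and that between conv-dSVA_F and conv-dSVA_D turned to 0.34 without conv-dSVA_D replicate 1.

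**Figure D2:**
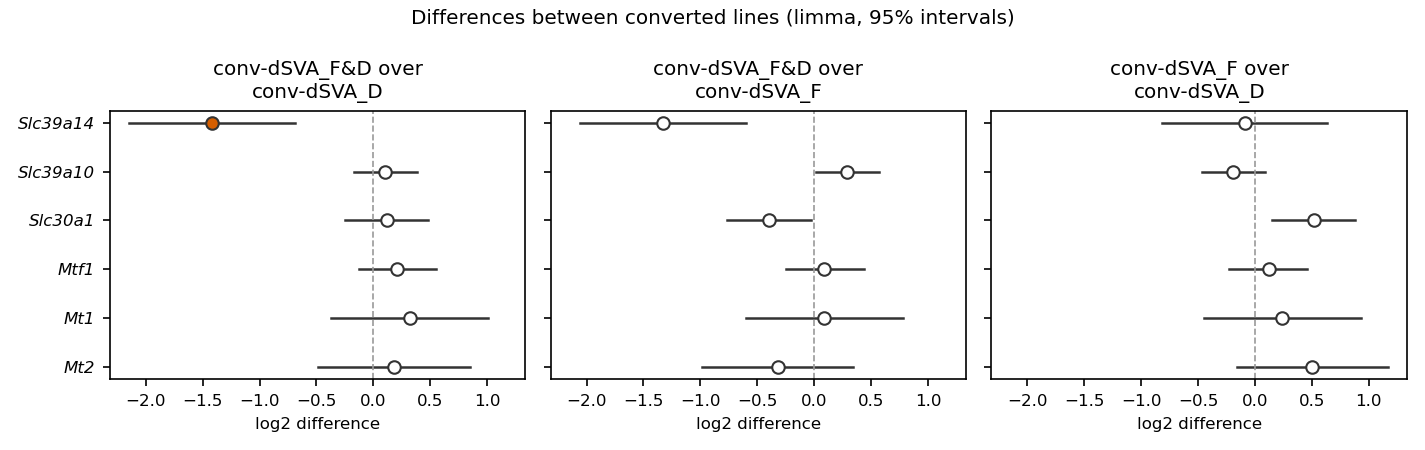
Log2 differences between converted lines (x axis) for the 6 tested genes (y axis), with limma estimates as points, 95% intervals as lines and a filled point where the adjusted p was under 0.05. The single filled point is Slc39a14 in conv-dSVA_F&D over conv-dSVA_D, at -1.42, a difference known when the genes were chosen.

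Set against the wild-type library, Slc39a14 was 2.71-fold and 5.26-fold higher in conv-dSVA_F&D replicates 1 and 2, 9.28-fold and 9.67-fold in conv-dSVA_F, and 13.7-fold and 7.46-fold in conv-dSVA_D. The mean of the converted groups lay 2.82 above the wild type on the log2 scale. This contrast chose the gene and has a single library on the wild-type side, so no test is given. Over all genes 0.623% were higher and 0.525% lower in the converted groups by limma, and nothing is read from these shares for the 7 genes. Here and below, a limma value against the wild type assumes that its lone library varies like the other groups. Taf1, the edited gene, had the opposite order of group means, with 1116.11 and 1087.96 normalized counts in conv-dSVA_F&D, 501.17 and 589.01 in conv-dSVA_F, 362.0 and 417.99 in conv-dSVA_D and 2897.88 in the wild type. For Slc39a14 the libraries of conv-dSVA_F and conv-dSVA_D overlapped, so their order is not settled. The converted lines carry a mousified hTAF1 allele while the build was mm10, and whether this affects their Taf1 counts was not tested.

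No other gene around Slc39a14 passed with limma. Counts at unadjusted p, above and below, are to be read against ranks by limma p over all 15240 genes. In conv-dSVA_F&D against conv-dSVA_D a p of 0.0495 stood at rank 3009, and against conv-dSVA_F one of 0.048 at rank 3092. In conv-dSVA_F against conv-dSVA_D a p of 0.0473 stood at rank 2441. For the converted groups against the wild type, one of 0.0435 stood at rank 2645. Of 24 protein-coding genes within 500 kb on either side, 20 were tested, and with limma 0 passed in conv-dSVA_F&D against conv-dSVA_D (6 had an unadjusted p under 0.05, edgeR called 0 and DESeq2 2), 0 against conv-dSVA_F (5, 0 and 0), 0 in conv-dSVA_F against conv-dSVA_D (3, 0 and 1) and 0 in the converted groups against the wild type (2, 0 and 1). Their median log2 difference was -0.24 in conv-dSVA_F&D against conv-dSVA_D, -0.09 against conv-dSVA_F, -0.05 in conv-dSVA_F against conv-dSVA_D and 0.29 in the converted groups against the wild type. In the first of these comparisons single neighbours ranged from -1.71 to 1.45, where Slc39a14 was at -1.42. The median of chromosome 14 lay within 0.064 of the wild-type library on the log2 scale in all converted libraries, and with chromosome medians set equal the log2 difference of Slc39a14 between conv-dSVA_F&D and conv-dSVA_D was -1.41.

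Protein-coding genes whose mean reached 100 normalized counts were searched for the profile of Slc39a14 (9652 genes). The 5 most like it over the 7 libraries were Etv4, Nnat, Spry4, Adam23 and Bmp2k. Likeness was the root-mean-square difference of log2 levels after centring each gene on its own mean, and these genes lay 0.34, 0.34, 0.51, 0.52 and 0.55 away, against a spread of 1.21 for Slc39a14 itself. Etv4, which encodes an ETS-family transcription factor, had 361.66 and 1044.78 normalized counts in conv-dSVA_F&D, 1683.91 and 2036.16 in conv-dSVA_F, 2450.44 and 1605.84 in conv-dSVA_D and 311.07 in the wild type. As for Slc39a14, replicate 2 was the higher conv-dSVA_F&D library and replicate 1 the higher conv-dSVA_D library. Nnat, an imprinted gene for the membrane proteolipid neuronatin, had 67.75 and 147.66 in conv-dSVA_F&D, 358.22 and 364.58 in conv-dSVA_F, 285.18 and 237.57 in conv-dSVA_D and 41.48 in the wild type. Spry4, which dampens receptor tyrosine kinase signals, had 148.33 and 392.84 in conv-dSVA_F&D, 1025.32 and 1055.15 in conv-dSVA_F, 1810.95 and 803.33 in conv-dSVA_D and 49.12 in the wild type. Its chromosome, 18, had a median 0.505 above the wild type on the log2 scale in the second conv-dSVA_F&D library, against -0.115 to -0.034 in the remaining converted ones. Genes were picked here for their likeness over these same libraries, so the distances carry no test.

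**Figure D3:**
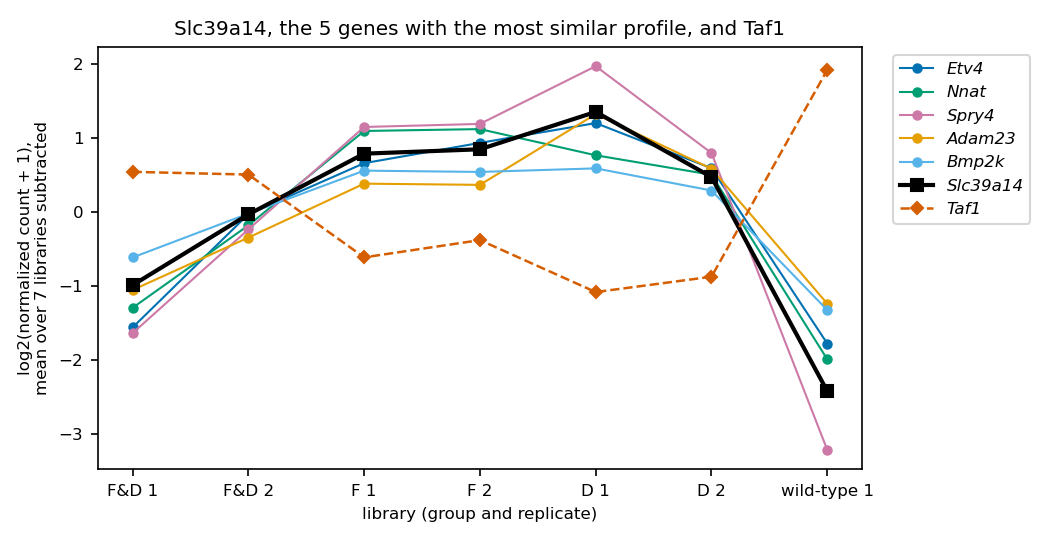
Log2 of the normalized count plus 1, less the mean of each gene over the 7 libraries (y axis), by library (x axis), for Slc39a14 (black squares), the 5 genes with the smallest root-mean-square distance from it, and Taf1 (dashed). The wild-type library is the lowest point of Slc39a14 and the highest of Taf1.

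Slc39a10, which encodes the plasma membrane zinc importer ZIP10, was at a similar level in every library. It had 1872.4 and 1649.35 normalized counts in conv-dSVA_F&D, 1393.76 and 1475.58 in conv-dSVA_F, 1671.72 and 1602.58 in conv-dSVA_D and 1390.55 in the wild type. The lowest and highest library differed by 1.35-fold. The log2 difference of conv-dSVA_F&D was 0.10 ± 0.12 from conv-dSVA_D (95% interval -0.17 to 0.38, limma adjusted p = 0.695) and 0.29 ± 0.12 from conv-dSVA_F (0.02 to 0.57, adjusted p = 0.216). Between conv-dSVA_F and conv-dSVA_D the limma estimate was -0.19 ± 0.12 (-0.47 to 0.09, adjusted p = 0.493).

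Levels of the importers can be set side by side only per length. Per kilobase of principal transcript, Slc39a14 stood at 96.2 ± 43.5 normalized counts in conv-dSVA_F&D, 229 ± 6.63 in conv-dSVA_F, 256 ± 107 in conv-dSVA_D (SD, n = 2 each) and 24.2 in the wild type. The same measure of Slc39a10 was 320 ± 28.7, 261 ± 10.5 and 298 ± 8.89 in these converted lines and 253 in the wild type. Slc39a10 was thus the more abundant importer per length in conv-dSVA_F&D, in conv-dSVA_F and in the wild type, while in conv-dSVA_D the values lay within the spread of Slc39a14. Per kilobase of all annotated exons, which is 10550 bases for Slc39a14 against a principal transcript of 4926, Slc39a14 was at 119 ± 49.9 and Slc39a10 at 269 ± 8.02 in conv-dSVA_D, so that closeness depends on the length used.

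Slc39a8, which encodes ZIP8 and is the closest relative of ZIP14, was near the detection limit. It had 4 and 0 reads in conv-dSVA_F&D, 1 and 9 in conv-dSVA_F, 0 and 2 in conv-dSVA_D and 1 in the wild type, or 0 to 9.14 normalized counts. A count of 0 allows up to 3 reads, which is 2.45 to 4.18 normalized counts depending on the library, for counting error only. The highest library was conv-dSVA_F replicate 2, and the replicates of that group were on either side of the limit, so no fold is given.

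Slc30a1, which encodes ZnT1, the exporter of the plasma membrane and a classical MTF1 target, was highest in conv-dSVA_F. Its levels were 535.62 and 582.29 normalized counts in conv-dSVA_F&D, 821.11 and 662.13 in conv-dSVA_F, 516.59 and 514.33 in conv-dSVA_D and 570.84 in the wild type. Both conv-dSVA_F libraries stood above all others, and no comparison passed after adjustment. The log2 difference between conv-dSVA_F and conv-dSVA_D was 0.52 ± 0.16 (95% interval 0.15 to 0.88, unadjusted p = 0.011 and adjusted p = 0.157 by limma). By limma, that between conv-dSVA_F&D and conv-dSVA_F was -0.40 ± 0.16 (-0.77 to -0.03, adjusted p = 0.206), and that between conv-dSVA_F&D and conv-dSVA_D was 0.12 ± 0.16 (-0.25 to 0.48, adjusted p = 0.749). The antisense gene 1700034H15Rik overlaps the start of Slc30a1. The kit keeps strand, while no source used here gives the strand setting of the counting, so reads of the overlapping pair may be mixed.

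Mtf1, the zinc sensor itself, varied little. It had 593.31 and 678.41 normalized counts in conv-dSVA_F&D, 595.62 and 594.09 in conv-dSVA_F, 549.24 and 547.8 in conv-dSVA_D and 531.55 in the wild type, a 1.28-fold span. Its log2 difference was 0.21 ± 0.15 between conv-dSVA_F&D and conv-dSVA_D (95% interval -0.13 to 0.55, limma adjusted p = 0.488), 0.09 ± 0.15 between conv-dSVA_F&D and conv-dSVA_F (-0.25 to 0.44, 0.78) and 0.12 ± 0.15 between conv-dSVA_F and conv-dSVA_D (-0.23 to 0.46, 0.768). Mtf1 overlaps the minus-strand gene 1110065P20Rik.

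The metallothioneins were among the abundant transcripts and showed no call. Mt1 had 10042.28 and 22966.95 normalized counts in conv-dSVA_F&D, 13631.24 and 14993.45 in conv-dSVA_F, 10275.15 and 14332.59 in conv-dSVA_D and 12493.1 in the wild type. Mt2 had 6431.16 and 14338.5 in conv-dSVA_F&D, 13107.94 and 11020.65 in conv-dSVA_F, 7432.94 and 9679.97 in conv-dSVA_D and 8406.59 in the wild type. For both genes the conv-dSVA_F&D replicates were the lowest and the highest of the 7 libraries, and the wild-type library stood within the range of the converted ones. Together they took 0.0764% to 0.161% of the reads of a library, and Mt1 ranked 243 among all genes by count in the wild type.

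No difference of Mt1 or Mt2 between converted lines passed. The log2 difference of Mt1 was 0.32 ± 0.31 between conv-dSVA_F&D and conv-dSVA_D (95% interval -0.37 to 1.01, limma adjusted p = 0.607), 0.09 ± 0.31 between conv-dSVA_F&D and conv-dSVA_F (-0.60 to 0.78, 0.902) and 0.24 ± 0.31 between conv-dSVA_F and conv-dSVA_D (-0.45 to 0.93, 0.767). For Mt2 these were 0.18 ± 0.30 (-0.49 to 0.85, 0.794), -0.32 ± 0.30 (-0.99 to 0.34, 0.585) and 0.50 ± 0.30 (-0.16 to 1.17, 0.445). The intervals reach 1.01 for Mt1 and 1.17 for Mt2, so changes of up to that size are within them. Without conv-dSVA_F&D replicate 1 both genes passed against conv-dSVA_D, Mt1 at 0.92 (limma adjusted p = 0.0317) and Mt2 at 0.76 (0.0442). Without conv-dSVA_F&D replicate 2, the same differences were -0.27 (0.47) and -0.40 (0.257), and Mt2 passed as lower than in conv-dSVA_F at -0.90 (0.0378). The direction therefore rests on which conv-dSVA_F&D library is used.

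Of the 6 tested genes, 0 passed with limma in conv-dSVA_F&D against conv-dSVA_F, where 1.71% of all genes were higher and 2.21% lower. At unadjusted p under 0.05 there were 3 (Slc39a14, Slc30a1 and Slc39a10), with edgeR 0 and with DESeq2 1, Slc39a14. Over all 15240 genes a limma p of 0.048 stood at rank 3092 in that comparison. Likewise 0 of 6 passed with limma in conv-dSVA_F against conv-dSVA_D, where 1.08% of all genes were higher and 0.262% lower. Slc30a1 was the 1 gene at unadjusted p under 0.05 there, and edgeR and DESeq2 each called 0.

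Mt1 and Mt2 differed between replicates in the same direction in conv-dSVA_F&D and conv-dSVA_D and in opposite directions in conv-dSVA_F, where replicate 2 less replicate 1 was 0.14 for Mt1 and -0.25 for Mt2 on the log2 scale. In conv-dSVA_F&D, replicate 2 exceeded replicate 1 by 2.29-fold for Mt1 and 2.23-fold for Mt2, gaps as large as which 10.4% and 11% of tested genes showed in that line. Slc39a14 had a 1.94-fold gap in the same direction (14.8% of genes), while Slc39a10 was lower in replicate 2 by a log2 difference of -0.18. In conv-dSVA_D the gap of Slc39a14 was 1.84-fold with replicate 1 higher (10.3% of genes), and that of Mt1 was 1.39-fold with replicate 2 higher. Across libraries the ratio of Mt1 to Mt2 normalized counts, with no correction for length, was 1.56 and 1.6 in conv-dSVA_F&D, 1.04 and 1.36 in conv-dSVA_F, 1.38 and 1.48 in conv-dSVA_D and 1.49 in the wild type. Between the conv-dSVA_F&D replicates the ratio hardly shifted, and the lowest ratio was in conv-dSVA_F replicate 1.

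Transcript length also separated these replicates. Mt1 and Mt2 have principal transcripts of 549 and 511 bases. In conv-dSVA_F&D, replicate 2 over replicate 1 had a median log2 difference of 0.40 in the 69 tested genes with principal transcripts of up to 500 bases, 0.18 in the 676 genes over 500 and up to 1000 bases and -0.10 in the 4065 genes over 4000 bases. In conv-dSVA_F and conv-dSVA_D the class of up to 500 bases had a median of 0.17 in each, and the class over 500 and up to 1000 bases had -0.03 in conv-dSVA_F and 0.10 in conv-dSVA_D. The gaps of 1.19 and 1.16 of Mt1 and Mt2 in conv-dSVA_F&D exceed the median of their length class, and the part of length in them was not tested. Depth also differed, with 23541885 and 16588467 reads in the conv-dSVA_F&D replicates.

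**Figure D4:**
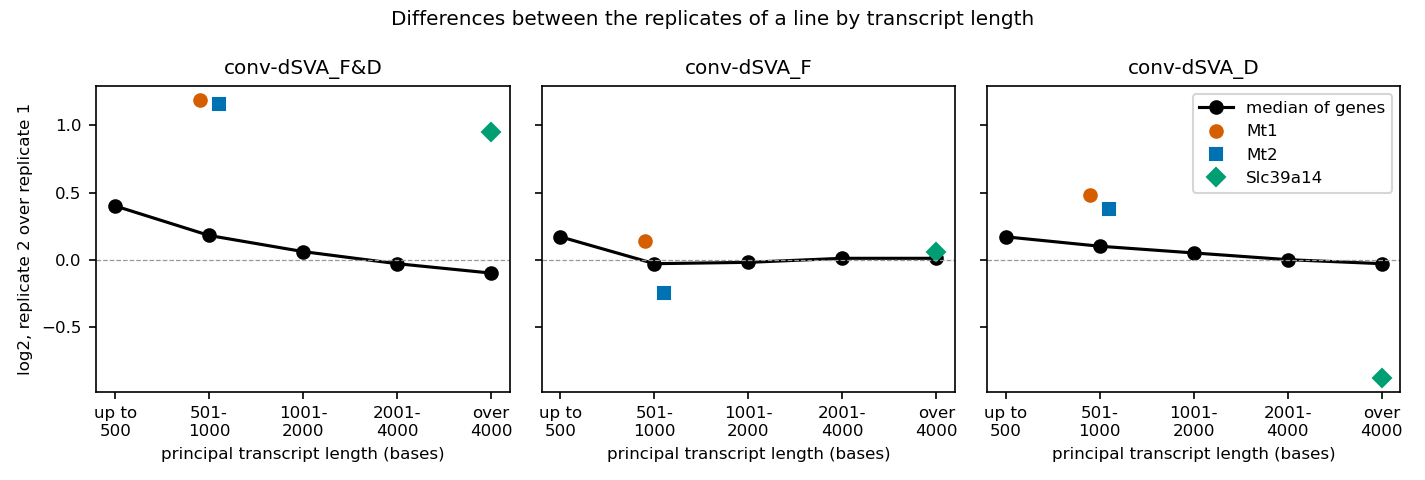
Log2 of replicate 2 over replicate 1 (y axis) by length of the principal transcript (x axis, 5 classes) in each converted line, with the median of tested genes in each class (black) and the values of Mt1, Mt2 and Slc39a14. In conv-dSVA_F&D the medians run between 0.40 and -0.10, and Mt1 and Mt2 lie at 1.19 and 1.16.

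The same search for likeness put Gripap1, Neu1, Nbn, Mdk and Nbdy nearest to Mt1, at 0.13 to 0.17 against its own spread of 0.37, and Mt2 stood at rank 14 of the 9652 genes at a distance of 0.19. The 5 nearest to Mt2 were Bace1, Ccdc141, Tmem45a, Gripap1 and Arv1, at 0.11 to 0.18 against a spread of 0.39. Gripap1 was in both sets.

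Per kilobase of principal transcript, Mt1 stood at 30063 ± 16647 normalized counts in conv-dSVA_F&D, 26070 ± 1755 in conv-dSVA_F, 22411 ± 5226 in conv-dSVA_D (SD, n = 2 each) and 22756 in the wild type. Mt2 stood at 20323 ± 10942, 23609 ± 2888 and 16745 ± 3109 in these lines and 16451 in the wild type on that measure. Per kilobase of all annotated exons the order was reversed, with 10027 for Mt1 and 14297 for Mt2 in the wild type, so which of the pair is more abundant depends on the transcript model.

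The Mt genes lie in 1 cluster on chromosome 8, whose median level differed between libraries. Against the wild type it stood at 0.01 and -0.01 in conv-dSVA_F&D, 0.63 and 0.44 in conv-dSVA_F, with 0.07 and 0.24 in conv-dSVA_D on the log2 scale. Less this median, Mt1 was at -0.32 and 0.89 in conv-dSVA_F&D, -0.50 and -0.18 in conv-dSVA_F, with -0.35 and -0.05 in conv-dSVA_D. Mt2 on the same scale was at -0.39 and 0.78, 0.01 and -0.05, and -0.25 and -0.04 in the same order. In conv-dSVA_F, Mt1 thus lay below the median of its chromosome and Mt2 at it. With chromosome medians set equal, the difference of Mt2 between conv-dSVA_F&D and conv-dSVA_F turned to 0.21 and that of Mt1 between conv-dSVA_F and conv-dSVA_D to -0.14, neither past the threshold. The antisense gene Gm45774 overlaps Mt2.

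The other metallothionein genes of the cluster are expressed in few tissues, Mt3 mainly in brain and Mt4 in stratified epithelium. Mt4 had 26.55 and 48.76 normalized counts in conv-dSVA_F&D, 151.46 and 70.07 in conv-dSVA_F, 3.84 and 2.45 in conv-dSVA_D and 31.65 in the wild type. Against conv-dSVA_D, it was higher by a log2 difference of 3.18 ± 0.63 in conv-dSVA_F&D (limma adjusted p = 0.0311) and of 4.67 ± 0.63 in conv-dSVA_F (0.0172). The conv-dSVA_D values rest on 4 and 3 reads, near the detection limit, so the sizes of these differences are uncertain. These differences were above 0 without any 1 library, and each call was lost without either conv-dSVA_D library, among others (adjusted p up to 0.164 and 0.24). Mt3 had 41.2 and 36.22 in conv-dSVA_F&D, 114.87 and 108.66 in conv-dSVA_F, 55.69 and 79.19 in conv-dSVA_D and 40.38 in the wild type, and did not pass with limma in any comparison (-1.51 ± 0.39 in conv-dSVA_F&D against conv-dSVA_F, adjusted p = 0.0631).

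Of 15 protein-coding genes within 500 kb of the Mt1 and Mt2 pair, 13 were tested. In conv-dSVA_F&D against conv-dSVA_F, limma called 5 as lower, against 2.21% of all genes (11 had an unadjusted p under 0.05, edgeR called 4 and DESeq2 7), among them Arl2bp (-1.67), Herpud1 (-1.10), Nup93 (-0.49) and Nudt21 (-0.58). Herpud1 encodes a protein of endoplasmic-reticulum-associated degradation, Nup93 a nuclear pore scaffold protein and Nudt21 an mRNA 3' end processing factor. The median of the 13 was -1.10, and with chromosome medians set equal 1 of the 5 calls held, that of Arl2bp, which did not pass limma once conv-dSVA_F replicate 1 was removed (adjusted p = 0.134). With limma and with edgeR, Mt4 was the single neighbour called in conv-dSVA_F&D against conv-dSVA_D and in conv-dSVA_F against conv-dSVA_D, where DESeq2 called 2 and 4, and 0 of 13 passed with limma against the wild type (3 had an unadjusted p under 0.05, and edgeR and DESeq2 called 0 each).

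**Figure D5:**
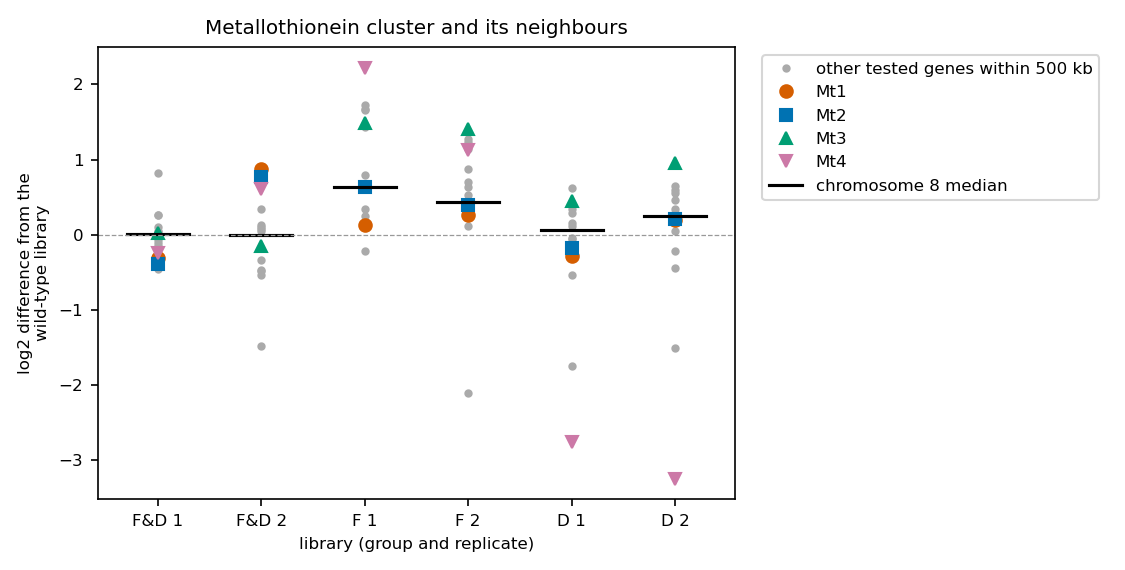
Log2 difference from the wild-type library (y axis) for Mt1, Mt2, Mt3, Mt4 and the other tested genes within 500 kb (grey) in each converted library (x axis), with the median of chromosome 8 as a black bar. In conv-dSVA_F the bar lies at 0.63 and 0.44, and Mt1 lies below it in both libraries.

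Other zinc transporters showed no limma call between the converted lines. Of 11 further ZIP genes 8 were tested and of 9 further ZnT genes 8, and with limma 0 passed in any comparison of these lines. Against the single wild-type library limma also called 0. At unadjusted p under 0.05 there were 1 ZIP and 2 ZnT genes in conv-dSVA_F&D against conv-dSVA_D, 0 and 2 against conv-dSVA_F, 2 and 1 in conv-dSVA_F against conv-dSVA_D, and 1 and 1 against the wild type. EdgeR called 0 in all of these and DESeq2 called 1, Slc30a7 against the wild type. Slc30a7, which encodes the Golgi zinc transporter ZnT7, had 537.46 and 543.28 normalized counts in conv-dSVA_F&D, 556.48 and 533.16 in conv-dSVA_F, 740.32 and 609.03 in conv-dSVA_D and 346.0 in the wild type (log2 difference 0.75), and this difference has no replicate check on the wild-type side. Median log2 differences of the ZIP genes were 0.23, 0.11 and -0.05 in the 3 comparisons between converted lines, and those of the ZnT genes were 0.10, -0.01 and -0.15, where the median of all genes lay within 0.01 of 0.

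Genes linked to the 7 by metal or regulation held a few calls. Of 5 other MTF1-linked genes, all tested, 1 was higher in conv-dSVA_F&D against conv-dSVA_D and against conv-dSVA_F, Ndrg1, a stress-induced gene. Over all genes 1.96% and 1.71% were higher in these comparisons. Ndrg1 had 732.48 and 862.29 normalized counts in conv-dSVA_F&D, 233.14 and 282.32 in conv-dSVA_F, 261.18 and 476.77 in conv-dSVA_D and 495.53 in the wild type, with log2 differences of 1.17 ± 0.27 from conv-dSVA_D (limma adjusted p = 0.0495) and 1.63 ± 0.27 from conv-dSVA_F (0.0183). The smaller of these passed in 1 of 7 fits that left out a library, and the larger in 5 of 7.

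Slc39a14 also carries iron and manganese, and of 12 iron and manganese genes 11 were tested. With limma 1 of the 11 passed in each comparison between converted lines, where 0.262% to 2.21% of all genes passed in a given direction. Steap3, an endosomal ferrireductase, was higher in conv-dSVA_F&D against conv-dSVA_D by 1.86 ± 0.38 (limma adjusted p = 0.0372). Steap2, a metalloreductase, was lower in conv-dSVA_F&D against conv-dSVA_F by -1.13 ± 0.21 (0.0247) and higher in conv-dSVA_F against conv-dSVA_D by 1.49 ± 0.21 (0.0193). Its levels were 314.05 and 466.67 normalized counts in conv-dSVA_F&D, 853.44 and 825.63 in conv-dSVA_F, 319.75 and 278.39 in conv-dSVA_D and 299.07 in the wild type. The Steap3 call held in 2 of 7 fits that left out a library, and each Steap2 call in 3 of 7. Against the wild type, 0 of the 11 passed with limma (3 had an unadjusted p under 0.05, and edgeR and DESeq2 called 0 each). All 8 copper genes were tested, and with limma 0 passed in any comparison (1 to 3 at unadjusted p under 0.05, 0 with edgeR and DESeq2). None of the 3 S100 genes reached the filter.

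Metallothioneins also respond to oxidants and glucocorticoids. Of 6 NRF2 genes, 2 were lower in conv-dSVA_F&D against conv-dSVA_F, where 2.21% of all genes were lower. Both lie on chromosome 8: Nqo1, a quinone reductase, by -1.85 ± 0.23 (limma adjusted p = 0.0108) and Hmox1, a haem oxygenase, by -0.65 ± 0.15 (0.0461). With chromosome medians set equal, Nqo1 held its call and Hmox1 did not, and Nqo1 lost it without conv-dSVA_F replicate 1 (limma adjusted p = 0.126). Of 5 glucocorticoid-responsive genes, Sgk1, a serum- and glucocorticoid-induced kinase, was the 1 called gene. Its order of group means in the converted lines was that of Slc39a14, though Slc39a14 overlapped between conv-dSVA_F and conv-dSVA_D. The rest of the list, Fkbp5, Tsc22d3, Per1 and Zbtb16, did not have that order. Sgk1 had 5218.91 and 4570.54 normalized counts in conv-dSVA_F&D, 6901.56 and 7413.45 in conv-dSVA_F, 11579.1 and 10999.26 in conv-dSVA_D and 5773.94 in the wild type. It was lower in conv-dSVA_F&D against conv-dSVA_D by -1.21 ± 0.11 (limma adjusted p = 0.00368), and this held in 6 of 7 fits that left out a library. Against conv-dSVA_F it was lower by -0.55 ± 0.11 (0.0309), held in 2 of 7 such fits. In conv-dSVA_F against conv-dSVA_D it was lower by -0.66 ± 0.11 (0.029), held in 3 of 7. Over all genes 1.21%, 2.21% and 0.262% were lower in these comparisons in turn. LIF, which is in the medium, signals through STAT3, and of 7 tested genes of that axis Stat3 was lower in conv-dSVA_F&D against conv-dSVA_D by -0.57 ± 0.12 (0.0398) and Il6st higher against conv-dSVA_F by 0.61 ± 0.13 (0.0316), each in 2 of 7 such fits. Over all genes 1.21% were lower in the first of these comparisons and 1.71% higher in the second.

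All libraries carried the 8 pluripotency markers, whose summed level was 136243 to 142994 normalized counts in conv-dSVA_F&D, 126019 to 130083 in conv-dSVA_F, 156821 to 160466 in conv-dSVA_D and 145858 in the wild type. Of these 8, Nanog was lower in conv-dSVA_F&D against conv-dSVA_D by -0.65 ± 0.13 (limma adjusted p = 0.0282), a call kept in 2 of 7 fits that left out a library. Over all genes 1.21% were lower in that comparison. Library depth was 16588467 to 26562418 reads. The summed level of 8 primitive endoderm markers was highest in conv-dSVA_D and lowest in the wild type, as the Slc39a14 means were, with 1248 to 2046 in conv-dSVA_F&D, 1860 to 2023 in conv-dSVA_F, 2579 to 2950 in conv-dSVA_D and 1046 in the wild type. Most of it was Lama1, at 1828.45 and 1001.59, 1509.48 and 1905.16, 2847.97 and 2475.3, and 928.85 in that order, while Gata6 was at 0.82 to 30.63 and Sox17 at 9.16 to 27.23 in all libraries and Foxa2 at 0 in conv-dSVA_D. The other markers did not share that order: Gata4 averaged 42.9 in conv-dSVA_F&D, 16.4 in conv-dSVA_D and 40.4 in the wild type, and Dab2 averaged 76.6, 17.5 and 34.9 in these groups. The median log2 difference of the 7 tested markers between conv-dSVA_F&D and conv-dSVA_D was 1.02, opposite in sign to that of Slc39a14. With limma 0 of the 7 passed there (3 had an unadjusted p under 0.05, edgeR called 0 and DESeq2 1). The part of such cells in the Slc39a14 result was not tested. Trophoblast markers summed to 1616 to 2325 in conv-dSVA_F&D, 2295 to 5254 in conv-dSVA_F, 990 to 1104 in conv-dSVA_D and 1732 in the wild type, neural markers to 1136 to 1786, 2044 to 2237, 1503 to 2006 and 1708, fibroblast markers to 119 to 198, 119 to 139, 80.8 to 86.4 and 347, and visceral endoderm and hepatocyte markers to 65 to 127, 43.7 to 81.7, 41.6 to 59.5 and 51.3. Of the trophoblast list, the keratin genes Krt8 and Krt18 were higher in conv-dSVA_F&D against conv-dSVA_D by 2.34 ± 0.43 and 2.08 ± 0.41 (limma adjusted p = 0.0254 and 0.0303), and in conv-dSVA_F against conv-dSVA_D by 3.70 ± 0.43 and 3.55 ± 0.41 (0.0114 each). Each of these calls was lost on removal of either conv-dSVA_D library. Over all genes 1.96% were higher in the first of these comparisons and 1.08% in the second. Eomes, of the same list, lay the other way at -0.36 and -0.21. Krt8 and Krt18 were also a large part of the highest trophoblast sum, at 1764.74 and 2310.16 in conv-dSVA_F replicate 1. The part of cells with trophoblast markers in the Slc39a14 result was not tested either. Alb, a defining hepatocyte gene, was at 0 in conv-dSVA_F, conv-dSVA_D and the wild type.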

How the data were processed

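RNA-seq libraries of rRNA-depleted total RNA (TruSeq Stranded Total RNA Gold) were read as a deposited table of gene counts divided by DESeq2 size factors, a normalized signal whose scaling the authors applied. Per the submitters' processing notes, the build was mm10 and the tools included featureCounts 1.6.3, STAR 2.7.3, DESeq2 and Trimmomatic 0.36. The annotation and strand setting of the counting are not given in the sources used here. Every positive value came back as whole reads within 0.1 read (100.0% in each library), 16588467 to 26562418 reads per library.

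Genes with a mean of at least 10 normalized counts (15240) were fitted in 1 model of 4 groups with limma 3.58.1 (R 4.3.3) on log2(normalized count + 1) with a variance trend, 3 residual degrees of freedom and Benjamini-Hochberg adjustment at 0.05 over all tested genes. Values after ± are standard errors for log2 differences and SD for levels, and log2(value + 1) understates changes of low genes. EdgeR 4.0.16 and DESeq2 1.42.0 on the recovered reads, other pseudocounts and filters, no trend, fewer libraries, TMM, equal chromosome medians and leaving out each library were alternatives. Scripts were tested on simulated data. Positions and lengths are from GENCODE M21 (GRCm38), which held 50612 of the 54456 genes (92.9%).

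The 7 genes and all gene lists were chosen with earlier results of these data known. Named genes are the 7, called genes of the lists and of the neighbourhoods, and the 5 nearest profiles. 1 neighbouring gene is not reported here by name. Taf1 and single markers were named beside results they move with.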

Additional observations from a re-analysis of the deposited data

How the results depend on the processing

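For the 6 tested genes, 306 alternative estimates of a difference were computed: 281 kept the direction and side of the threshold, 9 lost and 6 gained a call, and 10 turned direction. All 51 for Slc39a10 and all 51 for Slc30a1 were among the 281. In conv-dSVA_F&D against conv-dSVA_D, 1 of the 6 genes was called, and 0 with a pseudocount of 0.5, no low-value filter, no variance trend or only the libraries compared. Leaving out 1 library gave 0 to 2. Against conv-dSVA_F, 0 were called, 1 with a pseudocount of 5 or DESeq2, and 0 to 2 on leaving out 1 library. For any difference among the 3 lines, 1 was called, 0 with a pseudocount of 0.5, no filter, no trend, equal chromosome medians or edgeR, and 0 to 2 on leaving out 1 library. The cause was not tested.

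With equal chromosome medians, Mt2 in conv-dSVA_F&D against conv-dSVA_F was 0.21 and Mt1 in conv-dSVA_F against conv-dSVA_D was -0.14. On leaving out 1 library, log2 differences in conv-dSVA_F&D against conv-dSVA_D ranged -0.27 to 0.92 for Mt1 and -0.40 to 0.76 for Mt2. Against conv-dSVA_F they ranged 0.00 to 0.19 for Mtf1, -0.51 to 0.68 for Mt1 and -0.90 to 0.25 for Mt2. In conv-dSVA_F against conv-dSVA_D they ranged -0.53 to 0.34 for Slc39a14 and 0.00 to 0.48 for Mt1.

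Over all genes, 482 were called in conv-dSVA_F&D against conv-dSVA_D, 597 against conv-dSVA_F and 205 in conv-dSVA_F against conv-dSVA_D. DESeq2 called 1039, 1209 and 722, and the fits on compared libraries only called 246, 200 and 504. With equal chromosome medians 195 were called against conv-dSVA_F. Without the low-value filter limma called 0 in each, and 0 without conv-dSVA_D replicate 1, conv-dSVA_F replicate 1 and conv-dSVA_D replicate 2 in these comparisons in turn. No paired analysis was possible because replicate numbers were given in accession order and the labels pair no samples.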
